A study of Mus musculus with 10 samples.

Results

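The stress peptide system and the corticosteroid receptors with their targets were followed in the cortex of mice that lack Crtc1, a coactivator of the cAMP-responsive transcription factor CREB. The genes were corticotropin-releasing hormone (Crh), its binding protein (Crhbp) and its receptor (Crhr1), the glucocorticoid and mineralocorticoid receptors (Nr3c1 and Nr3c2), and the glucocorticoid-induced genes Fkbp5, Sgk1, Tsc22d3, Errfi1 and Ddit4. Every probe set whose annotation names only 1 of these genes was taken, whatever its values, which gave 22 of the 45037 probe sets tested and 10 of the 18193 genes. Cortical RNA came from 5 Crtc1-/- mice and 5 WT littermates, all female C57BL/6N adults of 2 months with no treatment, and each mouse was measured on 1 Affymetrix expression array. The methods of the study state that its mice were housed alone from 5 weeks of age. They also state that experiments combined several batches of mice, and the labels name no batch. The line carries the disrupted gene in every tissue and throughout life, so an effect within the cortex and one that reaches it from elsewhere cannot be told apart. Values are log2 array values, differences are Crtc1-/- minus WT, and a change was called where the adjusted p of limma, corrected by the Benjamini-Hochberg method across every probe set tested or every gene, was under 0.05.

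Crh is the peptide that starts the hormonal stress response from the hypothalamus, and in the cortex it is made mainly by inhibitory interneurons. Crhbp binds the peptide outside the cell and limits how much of it reaches Crhr1, a receptor that raises cAMP and so feeds the CREB pathway. Corticosteroids released at the end of the hormonal axis enter brain cells and bind Nr3c2 with high and Nr3c1 with lower affinity, and the bound receptors move to the nucleus and act on DNA. Among the genes they induce, Fkbp5 encodes a chaperone partner that lowers the affinity of the glucocorticoid receptor for its hormone, Sgk1 a kinase, Tsc22d3 the anti-inflammatory protein GILZ, Errfi1 an inhibitor of the epidermal growth factor receptor, and Ddit4 an inhibitor of mTOR signalling.

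Promoters are shown for the binding protein, because its values differed most between the genotypes, and for the 2 members that hold a complete response element in this window. The stretches run from 250 bases before to 50 bases after a start site and come from RefSeq (GRCm38.p6), where 8 of the 10 members had 16 promoters. The letters searched, on both strands, were the cAMP response element TGACGTCA, its short form TGACG, the glucocorticoid response element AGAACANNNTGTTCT and its short form AGAACA, and each complete element also contains its short form. Capitals mark the matches, positions count to the first matched base, and a match describes letters only. The Crhbp promoter (chr13:95444782-95445081, minus strand) holds 1 short cAMP element, 64 bases before the start and read on the opposite strand. The Errfi1 promoter shown (chr4:150854820-150855119, plus strand) holds the complete cAMP element 51 bases before the start. The other Errfi1 promoter (chr4:150853546-150853845) holds no match. The Sgk1 promoter shown (chr10:21993640-21993939, plus strand) holds the complete glucocorticoid element 189 bases before the start and a further short one 242 bases before it. Sgk1 has several other promoters, none with a complete element, and some of them hold no match.
Crhbp: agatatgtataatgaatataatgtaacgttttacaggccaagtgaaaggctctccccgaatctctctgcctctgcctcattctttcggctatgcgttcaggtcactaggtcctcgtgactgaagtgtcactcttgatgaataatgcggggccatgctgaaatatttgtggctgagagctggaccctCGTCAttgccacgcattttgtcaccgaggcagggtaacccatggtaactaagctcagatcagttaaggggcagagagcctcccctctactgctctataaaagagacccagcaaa
Errfi1: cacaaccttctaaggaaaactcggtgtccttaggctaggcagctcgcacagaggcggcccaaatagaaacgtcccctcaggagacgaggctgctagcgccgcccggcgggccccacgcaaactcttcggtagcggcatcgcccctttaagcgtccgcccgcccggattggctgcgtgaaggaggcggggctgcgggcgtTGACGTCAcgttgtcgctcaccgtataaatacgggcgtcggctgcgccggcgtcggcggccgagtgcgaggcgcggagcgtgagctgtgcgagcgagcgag
Sgk1: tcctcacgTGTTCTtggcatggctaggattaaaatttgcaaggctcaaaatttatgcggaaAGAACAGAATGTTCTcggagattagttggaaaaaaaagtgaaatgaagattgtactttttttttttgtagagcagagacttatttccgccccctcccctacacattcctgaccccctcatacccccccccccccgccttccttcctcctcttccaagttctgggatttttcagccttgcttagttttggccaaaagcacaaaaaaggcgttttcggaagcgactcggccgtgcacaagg
Over all 32851 promoters of this length, 1.79% held the complete and 20.8% the short cAMP element, and 0.00913% (3 promoters) held the complete and 19% the short glucocorticoid element. Among the 16 member promoters the complete elements stood in 1 each (6.25%) and the short ones in 4 each (25%). None of the 3 genes shown passed the test on its transcript.

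None of the 22 probe sets passed the test in either direction, against a background of 0.187% of all probe sets called lower and 0.115% called higher in Crtc1-/- cortex. At an unadjusted p under 0.05 there were 2 lower and 0 higher, beside 1767 lower and 1471 higher of all 45037 probe sets. Taking the brightest probe set of each gene and correcting over genes, 0 of 10 members passed, where 0.456% of all genes were called lower and 0.308% higher, and 3 members were lower at an unadjusted p under 0.05 (Crhbp, Nr3c2 and Tsc22d3), beside 1006 lower and 788 higher of all 18193 genes at that unadjusted threshold. All 10 brightest probe sets had a difference below 0, as did 9393 of the 18193 genes, with a median of -0.15 beside -0.003 over all genes. Of all 22 probe sets 16 lay below 0 and 6 above. In 2 of the 22, those of Crhbp and Nr3c2, all Crtc1-/- values lay below all WT values, which was so for 1.37% of all probe sets, and in 0 of the 22 all lay above, which was so for 0.713%. The members share the same 10 mice, so that their common sign is not 10 separate observations.

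**Figure D1:**
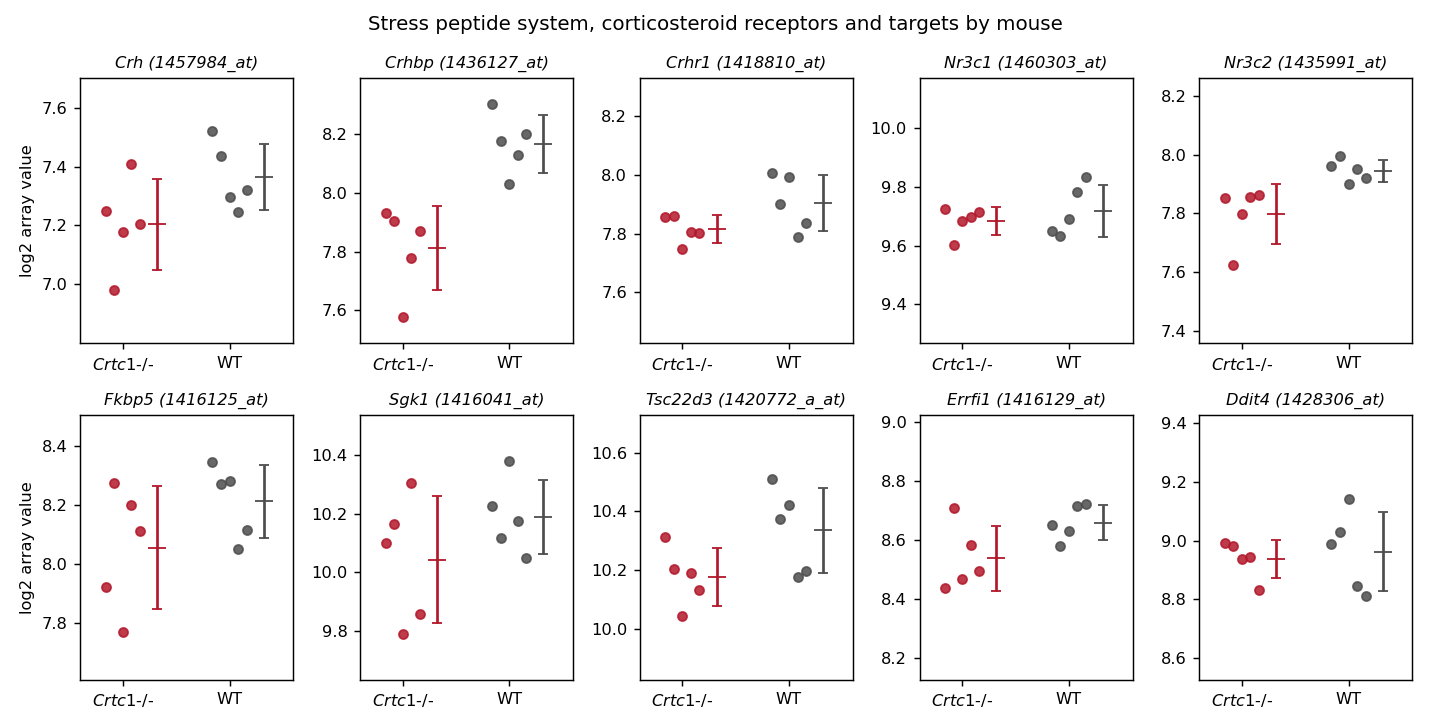
Log2 array value of each member at its brightest probe set, 1 point per mouse, Crtc1-/- left (red) and WT right (grey), with the mean and SD of 5 mice beside the points; vertical axes are cut and differ between panels, each spanning at least 0.9. The genotypes separate for Crhbp and Nr3c2 and overlap in the other 8 panels.

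The transcript of the peptide did not pass the test. The Crh probe set (1457984_at) read 7.25, 6.98, 7.18, 7.41 and 7.20 in the Crtc1-/- mice and 7.52, 7.44, 7.30, 7.25 and 7.32 in the WT mice. The genotypes overlapped, with 3 of 5 Crtc1-/- mice below every WT mouse and the fourth Crtc1-/- mouse above 3 of the WT mice. The means were 7.20 ± 0.15 in Crtc1-/- and 7.36 ± 0.11 in WT (SD, n = 5 each), a difference of -0.16 with a standard error of 0.08 (limma, adjusted p = 0.734), and without the second Crtc1-/- mouse it was -0.11. The fold was 0.894, and its 95% confidence interval reached from 0.793 to 1.01.

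The binding protein was the member with the lowest p. Crhbp (1436127_at) read 7.93, 7.91, 7.58, 7.78 and 7.87 in the Crtc1-/- mice, against 8.30, 8.18, 8.03, 8.13 and 8.20 in the WT mice. Every Crtc1-/- mouse lay below every WT mouse, and the third Crtc1-/- mouse was the lowest of all. The means were 7.81 ± 0.14 in Crtc1-/- and 8.17 ± 0.10 in WT (SD, n = 5 each), and the difference was -0.35 with a standard error of 0.07, a fold of 0.782 (95% confidence interval 0.699 to 0.875). By limma its adjusted p was 0.100 among probe sets, where it ranked 218 by p, and 0.0506 among genes. It therefore did not pass either correction, the second by a margin that several processing choices crossed: over genes it passed in 7 of 23 alternatives, with an adjusted p between 0.0136 and 0.781. In whole cortex, fewer cells that make an mRNA and less of it per cell cannot be told apart.

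The level of some marker lists differed between the genotypes. Oligodendrocyte markers averaged 10.23 to 10.55 in Crtc1-/- and 9.97 to 10.30 in WT mice, ranges that overlap, with 11 of 11 measured genes above 0 and 0 of 11 passing the test. Hippocampal markers averaged 6.76 to 6.90 in Crtc1-/- and 6.93 to 7.07 in WT mice, without overlap, and 2 of 11, Fibcd1 and Fam163b, were lower. With the oligodendrocyte mean as a covariate, the Crhbp difference was -0.23 (limma over genes, adjusted p = 0.546), and with the hippocampal mean it was -0.36 (adjusted p = 0.781). Its standard error was 0.07 without a covariate, 0.08 with the oligodendrocyte mean and 0.13 with the hippocampal mean. Over all genes, 6 were called lower and 4 higher with the hippocampal mean and 32 and 22 with the oligodendrocyte mean, beside 83 and 56 without a covariate. Because the hippocampal means do not overlap between the genotypes, that fit cannot tell marker level and genotype apart. The oligodendrocyte means overlap only from 10.23 to 10.30, so the fit with them can tell the 2 apart only weakly. The Crhbp difference lay below 0 in 23 of 23 alternatives. The oligodendrocyte covariate also moved the differences of Crh to -0.08, Crhr1 to -0.04, Fkbp5 to -0.01 and Tsc22d3 to -0.06. It moved Nr3c2 to -0.11, Sgk1 to -0.14 and Ddit4 to -0.01, and Nr3c1 and Errfi1 away from 0, to -0.09 and -0.15. With the endothelial mean as a covariate, Crh, Crhr1, Fkbp5 and Tsc22d3 moved away from 0, to -0.22, -0.12, -0.21 and -0.22. Crhbp (limma over genes, adjusted p = 0.0517), Nr3c2, Sgk1 and Ddit4 also moved away from 0, to -0.38, -0.16, -0.19 and -0.06. Nr3c1 and Errfi1 moved towards 0 with the endothelial mean, to -0.01 and -0.11. None of these genes passed with or without either covariate.

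The receptor of the peptide gave 2 probe sets, neither past the test. The brighter one for Crhr1 (1418810_at) read 7.86, 7.86, 7.75, 7.81 and 7.80 in the Crtc1-/- mice and 8.01, 7.90, 7.99, 7.79 and 7.84 in the WT mice. The Crtc1-/- values lay within the lower part of the WT range, with only the third Crtc1-/- mouse below all WT mice. The difference was -0.09 with a standard error of 0.05 (limma, adjusted p = 0.817), and at 1427782_a_at it was -0.06 (adjusted p = 0.941).

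Across the whole peptide family, 0 of 7 measured genes passed in either direction, with a median difference of -0.09. The remaining members are the related ligands Ucn, Ucn2 and Ucn3 and the second receptor Crhr2. Their differences were close to 0 for Ucn, 0.05 for Ucn2 and Crhr2 and -0.13 for Ucn3. The probe sets of Ucn2, Crhr2 and Ucn3 are dim, with 21.2%, 27.9% and 13.4% of all probe sets below them, and their values can show little. Among 9 measured peptides and receptors of the hypothalamic and pituitary part of the axis, such as Avp, Oxt and Pomc, 0 passed and the median difference was 0.02. Hypothalamic markers, a check for tissue beyond the cortex, averaged 4.64 to 4.99 in Crtc1-/- and 4.66 to 4.99 in WT mice, and 0 of 8 passed.

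Cortical interneurons make Crh and many other peptides. All 8 interneuron peptide genes lay below 0, with a median difference of -0.16. By the test 3 of the 8 fell and 0 rose: Sst by 0.54, Cort by 0.59 and Npy by 0.37 on the log2 scale (limma over genes, adjusted p = 0.00027, 0.000767 and 0.0408). These encode somatostatin, cortistatin and neuropeptide Y, and in each of the 3 all Crtc1-/- values lay below all WT values. Vip, the peptide that marks a class of interneurons to which many Crh cells belong, had a difference of -0.11 (adjusted p = 0.716). Of 13 further interneuron markers, such as Gad1 and Lhx6, 0 passed, and their mean was 7.96 to 8.13 in Crtc1-/- and 8.02 to 8.12 in WT mice. With that mean as a covariate, the Crhbp difference was -0.34 (limma over genes, adjusted p = 0.0563), beside -0.35 without it.

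**Figure D2:**
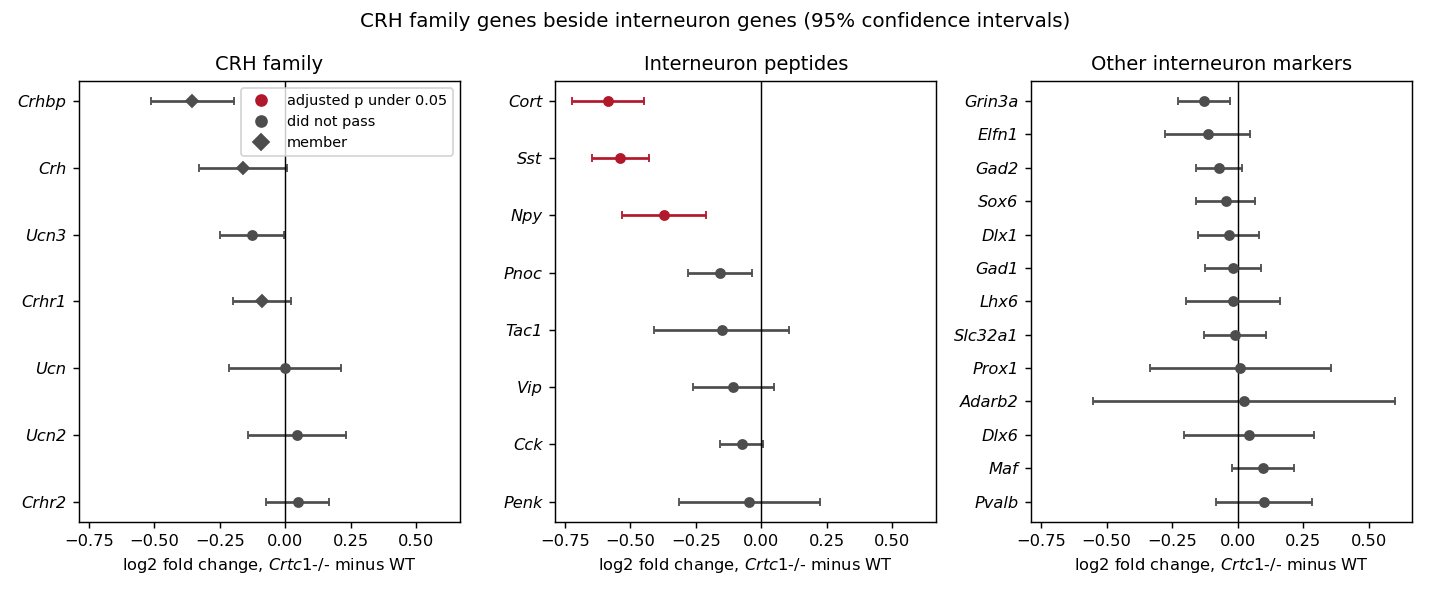
Log2 fold change, Crtc1-/- minus WT, with its 95% confidence interval (5 mice each) for the genes of the CRH family, the interneuron peptides and the other interneuron markers; red passed an adjusted p of 0.05 over all genes, and diamonds are Crh, Crhbp and Crhr1. Cort, Sst and Npy are the red points, and the intervals of Crhbp, Ucn3, Pnoc and Grin3a lie below 0 although these genes are grey.

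The glucocorticoid receptor showed no direction shared by all its probe sets, of which the brighter lay below 0 and the dimmer above. The brightest of 6 for Nr3c1 (1460303_at) read 9.72, 9.60, 9.68, 9.70 and 9.71 in the Crtc1-/- mice and 9.65, 9.63, 9.69, 9.78 and 9.83 in the WT mice. The genotypes overlapped almost fully. The difference was -0.03 with a standard error of 0.05 (limma, adjusted p = 0.951), and the fold of 0.977 had a 95% confidence interval of 0.903 to 1.06.

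The other 5 probe sets of Nr3c1 had differences between -0.12 and 0.17, with 2 below 0 (1421867_at and 1457635_s_at) and 3 above. The highest, 1453860_s_at, spread from 5.40 to 6.27 in Crtc1-/- and from 4.66 to 6.36 in WT mice and so carried little information. None of the 6 passed.

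The mineralocorticoid receptor was the other member whose genotypes separated. Nr3c2 (1435991_at) read 7.85, 7.62, 7.80, 7.86 and 7.86 in the Crtc1-/- mice, against 7.96, 7.995, 7.90, 7.95 and 7.92 in the WT mice. All Crtc1-/- mice lay below all WT mice, 4 of them closely together and the second well below the rest. The means were 7.80 ± 0.10 in Crtc1-/- and 7.95 ± 0.04 in WT (SD, n = 5 each), and the difference was -0.15 with a standard error of 0.05, a fold of 0.903 (95% confidence interval 0.832 to 0.980). By limma its adjusted p was 0.554 among probe sets and 0.328 among genes. Without the second Crtc1-/- mouse the difference was -0.10. Nr3c2 lies on chromosome 8, as Crtc1 does, with 96 protein-coding genes between them.

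Proteins that work with both receptors were also counted, among them Hsp90aa1, a chaperone that holds the unbound receptor, and the coactivators Ncoa1 and Ncoa2. Of 14 measured genes of the receptor complex 0 passed, with a median difference of -0.03. Of 6 enzymes and transporters that set the local supply of the hormone, such as Hsd11b1, which regenerates the active steroid, 0 passed, and the median was 0.03.

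**Figure D3:**
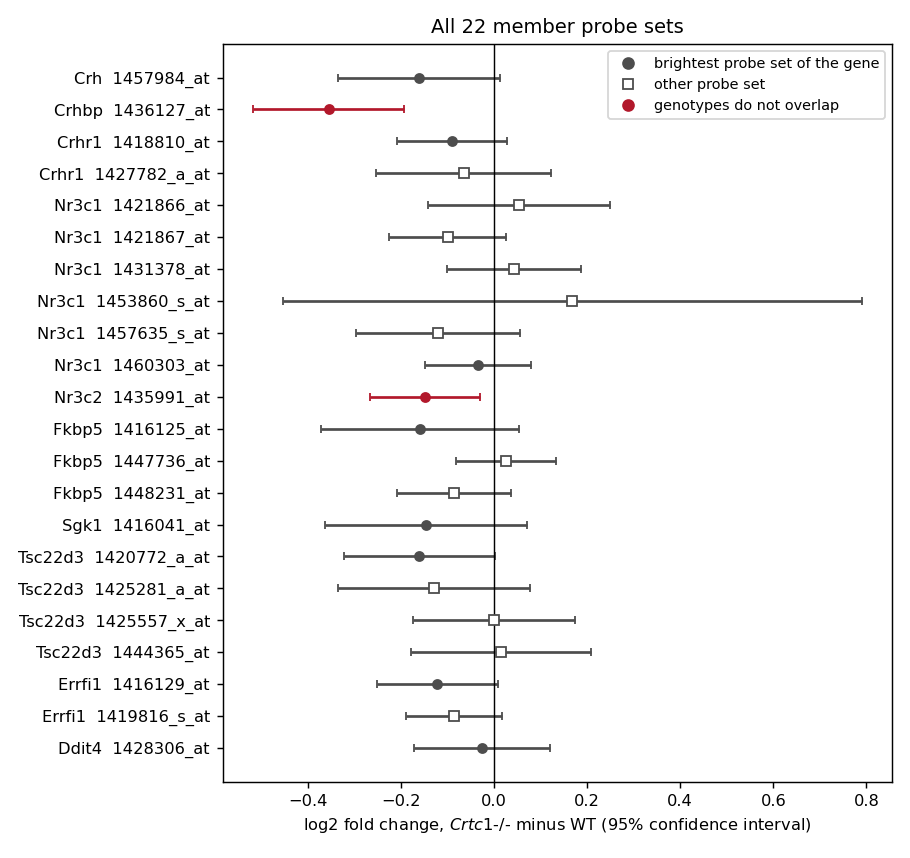
Log2 fold change, Crtc1-/- minus WT, of all 22 probe sets with 95% confidence intervals (5 mice each); filled circles are the brightest probe set of a gene, open squares the others, and red marks Crhbp and Nr3c2, whose genotypes do not overlap. The intervals of these 2 lie below 0, and that of every other probe set includes 0.

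Among the receptor targets, Fkbp5 varied most between Crtc1-/- mice together with Sgk1. Fkbp5 (1416125_at) read 7.92, 8.28, 7.77, 8.20 and 8.11 in the Crtc1-/- mice and 8.35, 8.27, 8.28, 8.05 and 8.11 in the WT mice. The first and the third Crtc1-/- mice lay below every WT mouse and the other 3 within the WT range. The difference was -0.16 with a standard error of 0.10 (limma, adjusted p = 0.822), and without the third Crtc1-/- mouse it was -0.09. With all mice it was -0.09 at 1448231_at and 0.03 at 1447736_at, which is so dim that only 0.218% of probe sets lie below it.

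The kinase gene had the same kind of spread. Sgk1 (1416041_at) read 10.10, 10.17, 9.79, 10.31 and 9.86 in the Crtc1-/- mice and 10.22, 10.12, 10.38, 10.17 and 10.05 in the WT mice. The third and the fifth Crtc1-/- mice were below all WT mice, while the fourth was above 4 of them. The difference was -0.15 with a standard error of 0.10 (limma, adjusted p = 0.849). It was -0.08 without the third Crtc1-/- mouse and -0.21 without the fourth. The SD was 0.22 in Crtc1-/- and 0.13 in WT mice.

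The gene of the anti-inflammatory protein GILZ had the lowest p among the targets. Tsc22d3 (1420772_a_at) read 10.31, 10.20, 10.04, 10.19 and 10.13 in the Crtc1-/- mice and 10.51, 10.37, 10.42, 10.18 and 10.20 in the WT mice. The WT mice fell into 3 higher and 2 lower values, and the lower ones lay among the Crtc1-/- mice. The difference was -0.16 with a standard error of 0.07 (limma, adjusted p = 0.706 over probe sets and 0.5001 over genes). The other 3 probe sets gave -0.13 (1425281_a_at), 0.00068 (1425557_x_at) and 0.02 (1444365_at), so the sign was not shared by all of them.

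Errfi1 has the complete cAMP element in 1 of its promoters, the stretch shown. Its brighter probe set, 1416129_at, read 8.44, 8.71, 8.47, 8.58 and 8.49 in the Crtc1-/- mice and 8.65, 8.58, 8.63, 8.71 and 8.72 in the WT mice. The second Crtc1-/- mouse was among the highest of all, and 3 of the others lay below every WT mouse. The difference was -0.12 with a standard error of 0.06 (limma, adjusted p = 0.728). At the second probe set, 1419816_s_at, 4 of 5 Crtc1-/- mice lay below all WT mice and the difference was -0.09.

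The mTOR inhibitor gene was the flattest of the targets. Ddit4 (1428306_at) read 8.99, 8.98, 8.94, 8.94 and 8.83 in the Crtc1-/- mice and 8.99, 9.03, 9.14, 8.84 and 8.81 in the WT mice. The Crtc1-/- values lay entirely inside the WT range. The difference was -0.03 with a standard error of 0.07 (limma, adjusted p = 0.972), a fold of 0.982, and leaving out single mice moved it between -0.06 and 0.02.

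Across members, low values gathered in some mice. The third Crtc1-/- mouse was the lowest of its genotype for 5 of 10 members and the highest for 0. This mouse and the fifth lay below the WT mean for 10 of 10 members, with median deviations of -0.19 and -0.15. Among WT mice, the first was the highest for 5 members, and the fourth was the lowest for 4, with a median deviation of -0.08. The signal of 3′ minus 5′ control probe sets, a measure of RNA integrity, overlapped between the genotypes for Gapdh (0.027 to 0.119 in Crtc1-/- and 0.085 to 0.112 in WT) and for Actb (0.701 to 0.761 in Crtc1-/- and 0.690 to 0.844 in WT). The third Crtc1-/- mouse was at neither end of its group's range for Gapdh or Actb.

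**Figure D4:**
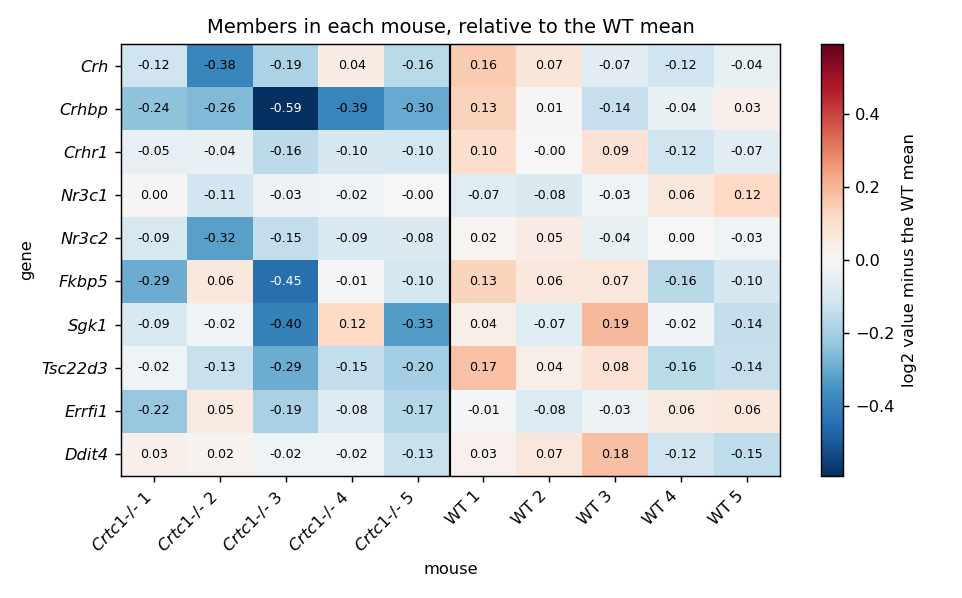
Difference of each mouse's log2 value from the WT mean for each member at its brightest probe set (rows) and each mouse (columns, Crtc1-/- left of the line and WT right); blue is lower and red higher. The column of the third Crtc1-/- mouse is blue for all 10 members, with -0.59 for Crhbp at its lowest, and the WT columns hold both colours.

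Variation among mice that the genotype does not explain was described by subtracting each genotype's mean. Over the 10 mice, the genes most like Crhbp among all genes measured were Pgs1 (r = 0.949), Rfwd3 (r = 0.930) and Aar2 (r = 0.928), and those most like Nr3c2 were Arl15 (r = 0.972), Nagpa (r = 0.943) and Stx16 (r = 0.942). These 6 were picked as the highest of 18193 genes and come from the same arrays and RNA as the members, and no test was made of them.

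The wider set of genes that glucocorticoids are known to induce was then read beside the 5 members. Of 32 such genes 2 fell and 0 rose, with a median difference of -0.05. Without the members, 2 of 27 fell, 16 lay below 0 and 11 above, and the median was -0.04, beside -0.003 over all genes. Arrdc2, an arrestin-domain gene, read 5.49 ± 0.13 in Crtc1-/- and 6.05 ± 0.12 in WT cortex (SD, n = 5 each), a difference of -0.56 (limma over genes, adjusted p = 0.00375). Dusp1, a phosphatase that inactivates MAP kinases, had a difference of -0.41 (adjusted p = 0.0401), and for both genes all Crtc1-/- mice lay below all WT mice. Dusp1 is also an immediate early gene, and of 20 genes of that kind 3 fell and 0 rose, the others being Nr4a1 (-0.99, adjusted p = 0.00954) and Nr4a3 (-0.94, adjusted p = 0.00485), nuclear receptors of the NR4A family. That list pointed both ways, with 12 genes below 0 and 8 above. At an unadjusted p under 0.05 (limma over genes), 8 were lower and 6 higher.

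**Figure D5:**
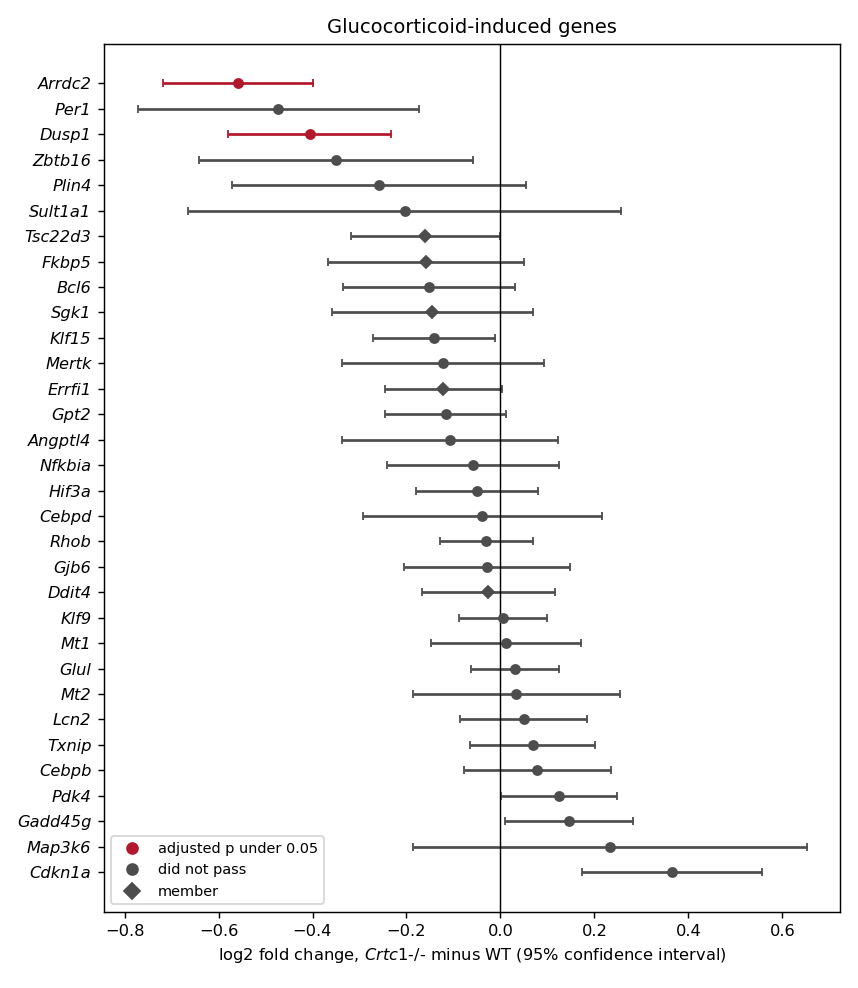
Log2 fold change, Crtc1-/- minus WT, with 95% confidence intervals (5 mice each) of 32 glucocorticoid-induced genes, ordered by size; red passed an adjusted p of 0.05 over all genes and diamonds are the 5 members on this list. Arrdc2 and Dusp1 are red, the 5 members lie between -0.16 and -0.03, and 11 genes lie above 0.

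Genes of this set that did not pass pointed both ways. Per1, a clock gene that glucocorticoids induce, had a difference of -0.47 (adjusted p = 0.199), and Cdkn1a, the cell cycle inhibitor p21, one of 0.37 (adjusted p = 0.104), with all Crtc1-/- mice above all WT mice. These 2, Ddit4l, Vip and the further genes of the CRH family were chosen for mention after their values were seen. Of 18 genes in the kinase pathways on which Sgk1, Ddit4 and Errfi1 act, 0 passed, and the median difference was 0.01. Ddit4l, the close relative of Ddit4, had a difference of 0.73 (adjusted p = 0.0704), and all its Crtc1-/- values lay above all WT values.

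The labels were checked on Crtc1 itself. Probe set 1434476_at read 6.38 ± 0.27 in Crtc1-/- and 9.69 ± 0.15 in WT cortex (SD, n = 5 each), a difference of -3.32, and a second probe set fell by 1.78, while 1446533_at had a difference of -0.03. Excitatory cortical neuron markers averaged 10.33 to 10.40 in Crtc1-/- and 10.39 to 10.44 in WT mice, and 1 of 7, Rasgrf2, rose, while the other 6 lay below 0 and did not pass, 3 of them lower at an unadjusted p under 0.05 (Tbr1, Neurod6 and Slc17a7). Astrocyte, microglial, endothelial, mural, meningeal, blood, choroid plexus, striatal, olfactory bulb and oligodendrocyte precursor markers had 0 genes past the test in either direction.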

How the data were processed

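Each of 10 cortical RNA samples was labelled with the 3′ IVT Express kit and hybridised to 1 Affymetrix mouse array. The authors deposited 1 normalized log2 value per probe set and array, and the normalization method is not given in the sources used here. Values lay between 2.14 and 13.9, array medians differed by at most 0.032, and their sorted values by at most 0.165, with correlations between arrays of 0.994 to 0.998. The table holds 45101 probe sets, of which 64 controls were left out. The platform annotation names 1 gene for 34945, several for 932 and none for 9160 of the rest, and 34741 gene identifiers matched GRCm38.p6. The deposited values were fitted without further scaling in limma (3.58.1, lmFit and eBayes; R 4.3.3), over all 45037 probe sets and again over 18193 genes, each represented by its probe set of highest mean. The fits were tested on simulated data. Precision is limited by the 5 mice per genotype. The p-values of limma set a difference against the spread between these mice, moderated by the spread over all probe sets or genes. A probe set's level was used only to choose the brightest per gene and to mark dim ones, not to compare transcripts of different genes. The members and the 23 lists of other genes (7 of pathways, 16 of cell and tissue markers) were chosen with earlier results of these data known. By rule, genes outside the members were named where they passed the test, up to 4 per list by smallest p, and other genes of the lists are named as examples of their list or after their values were seen. For the 2 members with the smallest p, the 3 genes of highest correlation were named. Alternatives changed the normalization, filters, variance model, covariates, the replicate block, the probe set per gene and the arrays included. The cortex label covers no finer region. The main fit did not pair mice by replicate number, and whether the numbers mark pairs is not known.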

Additional observations from a re-analysis of the deposited data

Results flagged for a closer look

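Of 44 sets of 5 mice, 22 probe sets in each genotype, 2 held a mouse far from the others, where about 1 in 20 is flagged by chance. Both concern the second Crtc1-/- mouse. For Nr3c2 (1435991_at) it read 7.62, with the nearest other Crtc1-/- mouse at 7.80. For the Nr3c1 probe set 1457635_s_at it read 8.44, with the nearest at 8.72. This mouse was the lowest of its genotype for 3 of 10 members at the brightest probe sets and the highest for 3. Without it, the Nr3c2 difference was -0.10 (limma over genes, adjusted p = 0.452).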

How the results depend on the processing

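With values as deposited, 0 member genes passed. The count of member genes lower in Crtc1-/- was 1, always Crhbp, after quantile normalization (limma over genes, adjusted p = 0.0378) and without dim probe sets (0.0420). The same held without probe sets whose names end in s_at, x_at or a_at (0.0494) and with a trended and robust prior (0.0136). It also held with array weights (0.0370), with a gene's probe sets averaged (0.0484) and with the replicate block (0.0348). Over probe sets the count was 1 with the trended and robust prior (0.0319). The count of member genes stayed at 0 in the other alternatives, including each of the 10 fits without 1 mouse. In those 10 fits the Crhbp difference ranged from -0.39 to -0.30 and its adjusted p from 0.0525 to 0.123. No member was called higher in any alternative. In the values, 1 of 5 WT mice correlated best with the Crtc1-/- mouse of its number, and same-numbered pairs had r between -0.327 and 0.087. This gave no sign of pairing by replicate number, but cannot show that none exists. Differences changed sign for Tsc22d3 without probe sets whose names end in s_at, x_at or a_at (0.0151). That filter left out its brightest probe set, 1420772_a_at, so that the dim 1444365_at stood for the gene. The sign also changed for Fkbp5 with hippocampal markers as a covariate (0.00802), for Nr3c1 with probe sets averaged (0.00226) and for Ddit4 without single mice (range -0.0634 to 0.0190, above 0 without the fifth Crtc1-/- or the third WT mouse). The cause was not tested in the last 3. Dim probe sets such as 1447736_at and 1444365_at limit what their values can show.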
